A study of Mus musculus with 6 samples.

Results

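The group consisted of 61 of 45037 probe sets, for 50 named genes, chosen by their change on induction, with a signal higher in induced than in control cells of clone A1 by at least 1 log2 and lower in those of clone A4 by at least 1 log2. A probe set is a set of short probes on the array that read the same stretch of a transcript, and every gene of the group has more than 1. The 61 are 0.135% of the probe sets (0.14% with 2 further ones for the RNA helicase Ddx6, left out by symbol), and 4 of the 61 carried no gene symbol. Because these values chose the group, the changes in A1 and A4 are given as a description, with no test. The reverse pattern, lower in A1 and higher in A4 by at least 1 log2, was found for 0 probe sets (0%).

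The cells were mouse embryonic stem (ES) cells of the line EBRTcH3, which carry human WBSCR1, coding part only and tagged with 3xFLAG, at ROSA26 behind a promoter that tetracycline represses. Each clone was derived separately from that line. Clones A1, A3 and A4 were each grown with tetracycline (control, time 0) and for 24 h without it (induced), all in medium with serum and leukemia inhibitory factor (LIF), and each clone and condition gave 1 array, 6 in all. Each clone is thus a single pair of arrays, removal of tetracycline cannot be told apart from the transgene, and p-values were not computed. WBSCR1 is the human counterpart of Eif4h, a translation factor that stimulates the RNA helicase Eif4a. The 6 mouse Eif4h probe sets changed by -0.23 to 0.28 log2 in A1, by -0.60 to 0.29 in A3 and by -0.12 to 0.15 in A4. Which of them can read the human sequence was not analysed here, so they give no check of the labels. In bulk RNA a change in the share of cells with a transcript cannot be told apart from a change of its level per cell.

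All 10 ES cell markers read at least 6 log2, with gene medians of 10.29 to 14.05, and 1 of 7 fibroblast feeder markers did, with gene medians of 2.64 to 7.11. Of the primitive endoderm markers 1 of 6, of the trophectoderm markers 3 of 5, of the neural ectoderm markers 1 of 3 and of the mesoderm markers 0 of 2 measured read at least 6 log2. In each of these 6 marker lists 0 genes were higher in A1 and lower in A4 by 0.5 log2, where 0.176% of all genes were, on 1 probe set a gene. Array medians over all probe sets were 5.11 to 5.18 log2.

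A mammalian gene often gives transcripts with different ends or with introns still in place, and separate probe sets of the gene can read such transcripts separately. Some long RNAs stay in the nucleus, such as the noncoding RNA Malat1, which is retained in nuclear speckles, and Kcnq1ot1, which is transcribed across an imprinted domain. Long genes take longer to transcribe and carry longer introns than short ones. These are background points. Total RNA was the material for the arrays, without separating nucleus and cytoplasm, and which RNAs the labelling took up was not analysed here.

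The 50 genes lay on 19 chromosomes, with at most 5 genes on any of them (chromosomes 2, 3 and 5). Of 50 probe sets of the group with a listed source sequence, 3 (6%) were designed on a RefSeq mRNA, against 18.5% of all probe sets. Promoters, 250 bases before to 50 after a start site, were given by RefSeq (GRCm38.p6) for 42 of the 50 genes. Their median G and C content was 63.9% and they held a median of 24.5 CG dinucleotides, against 61.3% and 22 for genes with a brightest probe set of at least 6 log2. The motif TATAAA, searched on the coding strand only, in the last 30 bases before the start, was in 0 of 42 member genes and in 1.05% of those genes. The 30 bases before the start are shown with CG in capitals for the 5 genes with an entry whose probe sets led the group, as the sequence at the annotated start. Those genes were chosen on single probe sets, and their brightest probe sets mostly did not share the pattern.
Cbl, chr9:44234047-44234076, minus strand: ctcCGgCGCGCGccccCGCGttgCGcCGgc
Akap9, chr5:3928156-3928185, plus strand: gcCGcCGgaccctgaccctccctcCGcccc
Ankrd11, chr8:123042285-123042314, minus strand: atgggCGggaggctctcatgCGgcCGgCGc
Malat1, chr19:5802673-5802702, minus strand: caataaatacCGgCGctcCGggctctgCGt
Cenpe, chr3:135212533-135212562, plus strand: gtcatgaCGctgCGccacccaatcCGctgc
These 5 windows held 8, 3, 4, 4 and 3 CG in the order shown, and none held TATAAA.

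In the group the median change was 1.41 log2 in A1 (range 1.02 to 2.88), or 2.65-fold higher in induced cells. It was -1.37 log2 in A4 (-2.66 to -1.0), or 2.58-fold lower. All probe sets together had medians of -0.02 in A1 and -0.01 in A4. Clone A3, which the rule did not use, had a median of -0.14 log2 in the group (-0.62 to 0.20), with 45 of the 61 lower, 15 higher and 1 equal. Among all probe sets 47.3% were lower in A3, the median change there was 0.01 and the SD over probe sets was 0.20. Of the 61, 3 changed by 0.5 log2 or more in A3, and all 3 fell (Ep400 -0.62, Rif1 -0.58 and Crebbp -0.54). Among all probe sets 0.901% rose and 0.948% fell by that much, so falls of this size were a larger share in the group than on the array. Other probe sets of the same genes, outside the group, had a median A3 change of -0.11. At the median the lower A3 signal was therefore not particular to the group.

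The median signal of the 61 was 8.06 log2 in induced A1 and 7.92 in control A4. It was 6.49 in control A1, 6.57 in control A3, 6.55 in induced A3 and 6.44 in induced A4. The rule set induced A1 above control A1 and control A4 above induced A4 by at least 1 log2, and clones differed little on most probe sets, so the order of arrays that follows was largely fixed by the choice of the group. For 60 of the 61 the 2 highest arrays were induced A1 and control A4, and the exception was Rufy3, where control A3 (3.63) read above induced A1 (3.59). Across the other 4 arrays the range within a probe set was 0.44 log2 at the median (0.11 to 1.13), and the step from the highest of them up to the lower of induced A1 and control A4 was 1.05 (-0.04 to 2.13).

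Across clones the values lay close together. Induced A1 minus control A4 was 0.11 log2 at the median over the 61 (SD 0.26 over probe sets), and control A1 minus induced A4 was 0.00 (SD 0.18). For all 45037 probe sets the same SDs were 0.24 and 0.20. With 1 array for each clone and condition, a difference between the clones, the handling or hybridization of single arrays and an exchange of the control and induced labels within A1 or A4 cannot be told apart. The mean change over the 3 clones was near 0 for the group, with a median of 0.00016 log2 and a range of -0.36 to 0.23, and it was -0.77 without A1 and 0.69 without A4.

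The pattern was strong in a few probe sets and weak across the array. Over all 45037 probe sets the changes in A1 and A4, which share no array, correlated at r = -0.042, and over the 61, whose range the rule cut, at -0.73, both given as a description across probe sets that come from the same 4 arrays. Of the 125 probe sets (0.278%) higher by at least 1 log2 in A1, 118 were lower in A4 and 104 were lower by at least 0.5 log2. All 88 probe sets (0.195%) lower by at least 1 log2 in A4 were higher in A1, 78 of them by at least 0.5 log2. The group makes up 48.8% of the former and 69.3% of the latter. The rule fixed the directions of the group, and those of the Ddx6 probe sets left out by symbol. These counts therefore follow in part from the rule and are not independent agreement between the clones. At 0.5 log2 in both clones 250 probe sets (0.555%) were higher in A1 and lower in A4, and 13 (0.0289%) were the reverse. Changes in the opposite sense were rarer at 1 log2, with 2 probe sets (0.00444%) lower in A1 and 9 (0.02%) higher in A4, and in A3 0 (0%) were higher and 8 (0.0178%) lower. At 0.5 log2 in a single clone, 2.11% were higher and 1.24% lower in A1, and 0.944% higher and 1.99% lower in A4. Just inside the limit lay Ubxn2a (1.02 and -1.03), Rufy3 (1.09 and -1.01) and Rif1 (1.16 and -1.0), and just outside it Washc4 (1.2 and -0.99), Rsf1 (1.2 and -0.99) and Rb1cc1 (1.37 and -0.97, A1 and A4). In signal, control then induced, Ubxn2a read 8.22 and 9.24 in A1, 8.26 and 8.31 in A3, and 9.01 and 7.98 in A4. Rufy3 read 2.50 and 3.59 in A1, 3.63 and 3.47 in A3, and 3.96 and 2.95 in A4. Rif1 read 7.88 and 9.03 in A1, 8.08 and 7.50 in A3, and 8.92 and 7.92 in A4. Of these, Ubxn2a and Rif1 had induced A1 and control A4 on top, and Rufy3 did not. Washc4 read 7.51 and 8.71 in A1, 8.11 and 7.96 in A3, and 8.30 and 7.31 in A4. Rsf1 read 6.84 and 8.04 in A1, 7.18 and 7.07 in A3, and 7.76 and 6.77 in A4. Rb1cc1 read 5.43 and 6.81 in A1, 5.37 and 5.35 in A3, and 6.32 and 5.35 in A4. In Washc4, Rsf1 and Rb1cc1, induced A1 and control A4 read above the remaining arrays.

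Signals below are log2 RMA values, control then induced within each clone. Of the 61 probe sets 51 had a mean signal of at least 5 log2. Background signal limits the dimmer ones, such as those of Cenpe (mean 3.89), Zfp292 (3.37) and Kcnq1ot1 (3.27). Of the genes in the group, 11 act on chromatin or transcription, with 14 probe sets whose median change was 1.73 in A1, -0.27 in A3 and -1.56 in A4. The roles were assigned by hand after the group was known, so the size of a role group is a description. Kdm5a removes methyl groups from lysine 4 of histone H3. Its probe set of the group read 4.92 and 7.42 in A1, 5.34 and 5.42 in A3, and 7.01 and 4.99 in A4. That probe set rose 5.63-fold in A1. Its induced A1 and control A4 arrays stood above the other 4, which read 4.92 to 5.42. Ankrd11, a regulator that binds histone deacetylases, read 7.13 and 9.04 in A1, 7.47 and 7.31 in A3, and 9.20 and 7.14 in A4 on the probe set with the larger change. The second Ankrd11 probe set of the group read 6.68 and 8.08 in A1, 6.57 and 6.55 in A3, and 7.73 and 6.59 in A4. Both Ankrd11 probe sets put the same 2 arrays on top, with a smaller step in the second. Resf1, a factor of retroelement silencing, was measured by 2 probe sets of the group. They read 7.55 and 9.75 in A1, 8.05 and 7.97 in A3, and 9.45 and 7.74 in A4, and 7.93 and 9.85 in A1, 8.72 and 8.38 in A3, and 9.55 and 7.87 in A4. The Resf1 probe sets had similar changes, and their A3 arrays lay between the low and the high arrays of the other clones.

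The chromatin remodeller Chd2 read 5.08 and 6.84 in A1, 5.09 and 4.98 in A3, and 6.71 and 5.06 in A4. The acetyltransferase Crebbp, a coactivator of many transcription factors, read 6.01 and 8.05 in A1, 6.32 and 5.78 in A3, and 7.88 and 6.24 in A4. Gatad2b, a subunit of the NuRD repressor complex, read 7.06 and 8.86 in A1, 7.38 and 7.10 in A3, and 8.66 and 7.06 in A4. In these genes induced A1 and control A4 read higher than any other array by over 1 log2. Atrx, a remodeller of heterochromatin encoded on the X chromosome, had 2 probe sets in the group. They read 5.90 and 7.39 in A1, 6.09 and 5.80 in A3, and 7.24 and 5.99 in A4, and 5.79 and 7.49 in A1, 5.62 and 5.49 in A3, and 7.23 and 5.97 in A4. The remaining genes of this role were Ep400, an ATPase of the TIP60 complex (1.40 in A1 and -1.53 in A4), Tet1, a methylcytosine dioxygenase (1.03 and -1.23), Phf20, a PHD finger protein of an acetyltransferase complex (1.06 and -1.06), and the zinc finger gene Zfp292 (1.07 and -1.21). Ep400 had the lowest A3 change of the 61, -0.62 log2.

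Another 10 genes take part in chromosome structure, replication or cell division, with median changes of 1.87 in A1, -0.12 in A3 and -1.50 in A4. Akap9, which anchors protein kinase A at the centrosome and Golgi, read 4.14 and 6.20 in A1, 4.22 and 4.03 in A3, and 6.20 and 3.72 in A4. Cenpe, the motor protein of the kinetochore, read 3.15 and 5.27 in A1, 3.40 and 3.36 in A3, and 5.02 and 3.15 in A4. Nipbl, which loads cohesin onto chromosomes, read 7.39 and 9.40 in A1, 7.63 and 7.19 in A3, and 9.13 and 7.36 in A4. In each of these genes induced A1 and control A4 were the 2 highest arrays. Smc4, a core subunit of condensin and the brightest of this role, read 9.33 and 11.38 in A1, 10.05 and 9.88 in A3, and 11.05 and 9.48 in A4. Evi5, which acts on Rab GTPases at the midbody, read 7.80 and 9.55 in A1, 8.22 and 8.17 in A3, and 9.48 and 7.71 in A4. In Smc4 the control array of A3 lay above the low arrays of A1 and A4, at 10.05 against 9.33 and 9.48. Smc2, the partner of Smc4 (1.73 in A1 and -1.18 in A4), Smc6 of a related complex (1.66 and -1.24), Knl1, a kinetochore scaffold (1.98 and -1.21), Rfc1, part of the clamp loader (1.66 and -1.43) and Rif1, which sets replication timing (1.16 and -1.0), completed the role.

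RNA processing, RNA function and translation accounted for 11 genes with 14 probe sets and median changes of 1.36 in A1, -0.08 in A3 and -1.39 in A4. Malat1 was read by 3 probe sets of the group. The one with the largest fall in A4 read 5.95 and 7.90 in A1, 5.71 and 5.71 in A3, and 8.05 and 6.15 in A4, and its A3 arrays were equal. The second read 4.93 and 7.12 in A1, 5.02 and 4.77 in A3, and 6.66 and 5.10 in A4. The third read 6.49 and 8.03 in A1, 6.23 and 6.27 in A3, and 7.92 and 6.31 in A4. All of them had induced A1 and control A4 on top, with the remaining 4 arrays close to each other. Kcnq1ot1 read 2.85 and 4.80 in A1, 2.62 and 2.34 in A3, and 4.28 and 2.74 in A4, the lowest mean signal of the group. Malat1 and Kcnq1ot1 were the only genes of the group annotated as noncoding, and 48 were protein coding. Thoc2, a subunit of the THO complex for mRNA export and X-linked like Atrx, had 2 probe sets. They read 7.42 and 8.76 in A1, 7.59 and 7.43 in A3, and 8.77 and 7.28 in A4, and 7.48 and 8.89 in A1, 7.50 and 7.45 in A3, and 8.64 and 7.39 in A4. Srrm2, a scaffold of nuclear speckles, changed by 1.37 in A1 and -1.40 in A4 at 9.84 to 11.45 log2 over the 6 arrays, the highest mean signal of the group. The nuclear cyclophilins Ppig (1.36 and -1.37) and Nktr (1.33 and -1.38), the SR-related protein Scaf11 (1.09 and -1.24) and the RNA-binding protein Sltm (1.78 and -1.45) were also in the group. Zc3h13, part of the complex that writes m6A (1.28 and -1.03), Ago2, the slicer of small RNA silencing (1.2 and -1.09), and Eif4ebp2, an inhibitor of the cap-binding protein eIF4E (1.26 and -1.14), made up the rest.

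Signalling and protein turnover held 5 genes. Cbl, a ubiquitin ligase that marks receptor tyrosine kinases for degradation, had the largest change of all 45037 probe sets in both clones, up in A1 by 7.38-fold and down in A4 by 6.33-fold. That probe set read 5.80 and 8.68 in A1, 6.36 and 6.16 in A3, and 8.49 and 5.83 in A4. A second Cbl probe set of the group read 5.71 and 6.77 in A1, 5.85 and 5.52 in A3, and 6.74 and 5.51 in A4. The 2 probe sets ranked the same 2 arrays on top, while the step in the second was smaller, 1.06 against 2.88 log2 in A1. Wnk1, a kinase that controls ion transport, read 6.96 and 8.59 in A1, 7.60 and 7.12 in A3, and 8.51 and 6.56 in A4. The ubiquitin ligase Dzip3 (2.27 and -1.41), Pdpk1, the kinase that activates Akt (1.23 and -1.10), and Ubxn2a, a UBX domain protein (1.02 and -1.03), were the other genes of this role. The last 13 genes serve membranes, trafficking, the cytoskeleton or metabolism, with medians of 1.2 in A1, -0.05 in A3 and -1.24 in A4. They were the GMP synthase Gmps (1.66 and -1.43), the calcium pump Atp2b1 (1.48 and -1.24), the actin-associated Luzp1 (1.54 and -1.24), the reticulon Rtn4 (1.32 and -1.24), the cholesterol ester hydrolase Nceh1 (1.2 and -1.38), the acyltransferase Lpgat1 (1.21 and -1.19) and the aminopeptidase Npepps (1.18 and -1.15). Also among them were the syntrophin Sntb2 (1.11 and -1.24), the membrane scaffold Mpp7 (1.07 and -1.28), the endocytic regulator Gapvd1 (1.25 and -1.06), the ethanolamine kinase Etnk1 (1.04 and -1.31), Ccser2 (1.03 and -1.04) and the RUN and FYVE domain protein Rufy3 (1.09 and -1.01). The 4 probe sets without a symbol changed by 1.36 and -1.59, 1.22 and -1.45, 1.09 and -1.82, and 1.37 and -1.08.

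Most other probe sets of these genes did not share the pattern. Every one of the 50 genes had at least 1 further probe set, 154 in all. Their median change was 0.04 log2 in clone A1, -0.11 in clone A3 and -0.03 in clone A4. Of the 154, 53 (34.4%) were higher in A1 and lower in A4 at any size, against 22.6% of all probe sets, and 29 were the reverse, against 24.6%. At 0.5 log2 in both clones 9 of 154 (5.84%) were higher in A1 and lower in A4 and 0 the reverse, against 0.42% of all probe sets outside the group and 0.0289% of all probe sets. Those 9 belonged to Akap9, Crebbp, Dzip3, Ep400, Kdm5a, Mpp7, Ppig, Rufy3 and Zc3h13. Of the 5 other Kdm5a probe sets 1 was opposite by 0.5 log2 (1.66 in A1 and -0.56 in A4). The same held for 1 of 5 for Akap9 (1.36 and -0.91) and 1 of 2 for Ppig (1.01 and -0.93). Their mean signals were 4.38 log2 for Kdm5a, 3.73 for Akap9 and 7.34 for Ppig. Some of the 9 lay just under the limit of the group, so the 2 sets of probe sets are separated by the rule and are not independent.

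For 46 of the 50 genes the brightest probe set was not in the group. Signal differs between probe sets through probe affinity as well as through RNA level, so a brighter probe set is not evidence of more RNA. These 46 brighter probe sets had medians of 0.02 in A1 and -0.01 in A4, 13 were higher in A1 and lower in A4, and 0 were so by 0.5 log2. They lay above the brightest probe set of the group for that gene by 2.11 log2 at the median (0.09 to 5.68). The brighter Cbl probe set read 8.98 in the control and 9.07 in the induced array of A1, 8.31 and 8.08 in A3, and 9.10 and 8.81 in A4. For Cenpe it read 8.99 and 8.91 in A1, 8.63 and 8.44 in A3, and 8.80 and 8.87 in A4. For Chd2 it read 8.59 and 8.46 in A1, 8.25 and 8.15 in A3, and 8.61 and 8.52 in A4. None of Cbl, Cenpe and Chd2 showed here the step seen in the group. The brightest Akap9 probe set changed by 0.06 in A1 and 0.03 in A4, and that of Crebbp by -0.02 in A1 and 0.06 in A4. That of Smc4 changed by -0.0023 in A1 and -0.04 in A4, and that of Tet1 by -0.10 in A1 and 0.04 in A4. For Kdm5a the brightest changed by 0.20 in A1 and 0.12 in A4, and for Ppig by -0.03 in A1 and 0.08 in A4.

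Malat1 was split within the gene. Its other 4 probe sets changed by -0.22 to 0.06 in A1 and by -0.49 to -0.04 in A4, and the brightest of them read 6.80 in the control and 6.66 in the induced array of A1, 6.27 and 6.56 in A3, and 6.87 and 6.37 in A4. For Kcnq1ot1 the brightest probe set fell by 0.65 log2 in A1 and by 0.74 in A3 and changed by 0.11 in A4. Srrm2, Sntb2, Ccser2 and Malat1 were the 4 genes whose brightest probe set was in the group. The next Srrm2 probe set changed by -0.60 in A1 and 0.07 in A4. In 4 genes all other probe sets were higher in A1 and lower in A4 (Cbl, Atp2b1, Knl1 and Pdpk1), and in 17 genes 0 of them were. In those 4 genes the changes were small, all under 0.5 log2 in size. Cbl (0.09 and -0.29), Knl1 (0.00036 and -0.06) and Pdpk1 (0.30 and -0.19) had 1 other probe set each. Atp2b1 had 2 (0.01 and -0.22, and 0.09 and -0.12).

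The rank of a probe set within its gene was followed over the whole array. Of 9062 genes with 1 probe set, 0 were in the group. Among genes with several, 4 of 8967 brightest probe sets (0.0446%) were in the group, 26 of 8967 second brightest (0.290%) and 27 of 7741 dimmer ones (0.349%). With the limit at 0.5 log2 the shares were 0.0552% for genes with 1 probe set, 0.301% for the brightest, 1.05% for the second brightest and 1.24% for the dimmer ones, and the reverse pattern stayed at 0.0112% to 0.0441%. Without the group itself these shares were 0.0552%, 0.257%, 0.761% and 0.894%. Restricted to probe sets of at least 5 log2 outside the group, they were 0.289% for the brightest and 1.31% for the others of genes with several. Member genes had 2 to 7 probe sets each with a median of 4, against a median of 1 over all genes and of 2 over genes of at least 50 kb.

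Genes of the group were long. Their genomic span, from the first to the last annotated base, had a median of 77.6 kb (quartiles 52.1 and 103 kb). It was 23.3 kb for the 9570 protein-coding genes whose brightest probe set read at least 6 log2 and 20.3 kb for all 18029 genes with a span. Of the 50 genes 39 (78%) spanned 50 kb or more, against 25.8% of those 9570, and 1 spanned under 20 kb, against 45.1%. The short one was Malat1 (6.98 kb), a mostly unspliced RNA, and the longest was Mpp7 (279 kb), followed by Nipbl (175 kb), Ankrd11 (159 kb) and Akap9 (152 kb). Transcript length was not analysed here. The comparison of spans was not matched for the number of probe sets a gene. Of all genes 50.3% had 1 probe set, against 31.9% of genes of 50 kb or more, while every gene of the group had several.

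Length also went with the smaller changes outside the group. Among probe sets of at least 5 log2 that were not in the group, 0.207% of those for genes under 20 kb were higher in A1 and lower in A4 by 0.5 log2. The share was 0.797% at 20 to 50 kb, 1.12% at 50 to 100 kb and 1.26% at 100 kb or more. The protein-coding genes whose brightest probe set read at least 6 log2 were also read on that probe set alone. There the median of the A1 change minus the A4 change ran from -0.09 log2 under 5 kb to 0.04 at 200 kb or more outside the group. At that level the difference between length classes was small. The 186 probe sets outside the group that were opposite by 0.5 log2, helicases left out, had genes with a median span of 50.9 kb and a median A3 change of -0.09, with 135 lower in A3. Genes of the 13 reverse probe sets had a median span of 13.1 kb.

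Gene lists of related function were read on 1 probe set a gene, the brightest, and again over all probe sets. The lists were drawn up with members of the group known, so counts over all probe sets are given for those outside the group, where 0.42% were opposite by 0.5 log2 on the array as a whole. At the level of the brightest probe set no list moved as the group did, with medians of -0.07 to 0.07 in A1 and -0.05 to 0.05 in A4 over the 10 lists. Chromatin remodellers and their subunits had 1 of 35 genes opposite by 0.5 log2 (Arid2, 0.54 and -0.50). Over all probe sets outside the group it was 9 of 119. Besides Arid2 these included another Ep400 probe set (0.53 in A1 and -0.52 in A4), Chd7 (0.96 and -0.86), Smarca4 (0.76 and -0.77) and Chd4 (0.76 and -0.62). The others were for Bptf (0.58 and -0.62), Arid4a (0.60 and -0.96) and Baz2b (0.97 and -0.76 on the brighter of its probe sets). The genes of this list had a median span of 106 kb. For genes of 100 kb or more, 2.07% of probe sets outside the group were opposite by 0.5 log2, counting those of at least 5 log2 that were not the brightest. SR proteins, their kinases and speckle proteins had 1 of 35 genes opposite, Srrm2 of the group, and 6 of 146 probe sets outside it. The 6 were for Srpk2, a kinase of SR proteins (1.27 and -0.73, and 0.79 and -0.59), Luc7l3 (1.03 and -0.79), Rbm25 (0.91 and -0.80), Rbm39 (0.81 and -0.86) and Srrm1 (0.51 and -0.51).

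Anchoring and centrosome proteins had 3 of 58 probe sets outside the group opposite by 0.5 log2, for another Akap9 probe set, Akap2 (1.42 and -0.95) and Golga4 (1.10 and -0.96). Histone demethylases and methyltransferases had 2 of 113, for another Kdm5a probe set and Kmt2c (0.56 and -0.56), and large ubiquitin ligases 1 of 100, for Nedd4 (0.61 and -0.71). Nuclear noncoding RNAs had 0 of 71. On the brightest probe set of each gene, Snhg11 (0.31 and -0.65) had the largest difference between A1 and A4 in that list after Malat1. Nuclear pore and export genes had 0 of 60. Heterogeneous nuclear ribonucleoproteins with other splicing regulators had 0 of 109, RNA surveillance and decay genes 0 of 67 and the short cytosolic ribosomal protein genes 0 of 54. The genes named here from all probe sets of a list were chosen after their values were seen.

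RNA quality readings were taken from the Affymetrix control probe sets. The 3' minus 5' signal of Gapdh was -0.01 to 0.10 log2 and that of Actb 0.29 to 0.45 over the 6 arrays. It was 0.44 to 0.95 for 18S ribosomal RNA, with a change of -0.51 in A1, and 1.45 to 1.80 for Tfrc. For Pcx it was 1.03 to 1.38, with a change of 0.13 in A1 and -0.29 in A4, which has the signs of the group. The changes in A1 and A4 were -0.05 and -0.03 for Gapdh, 0.05 and 0.0049 for Actb, and -0.25 and -0.14 for Tfrc. For 18S ribosomal RNA the change was 0.04 in A4. None of these other controls had the signs of the group, and 18S ribosomal RNA had the reverse signs. The mean Actb control signal moved with the group. Its highest readings, 13.63 log2 each, were those of induced A1 and control A4, the remaining arrays read 13.32 to 13.54, and the change was 0.25 in A1 and -0.31 in A4. For Gapdh the change was 0.02 in A1 and -0.0049 in A4. The mean Pcx signal went the other way, by -0.13 in A1 and 0.07 in A4. The 18S ribosomal RNA readings were higher after induction by 1.36 in A1 and 0.66 in A3 and differed by 0.0030 in A4, where the group fell. For Tfrc, A1 gave 0.68, A3 gave -0.12 and A4 gave 0.44. Hybridization spikes, added after labelling, had median changes of 0.20, -0.13 and -0.03 in A1, A3 and A4, and those of polyA spikes were 0.28, -0.14 and -0.12. The medians of both kinds of spike and the mean Gapdh signal thus also had the signs of the group in A1 and A4. The part of these readings in the pattern of the group was not tested.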

How the data were processed

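RNA of 6 cultures was hybridized to Affymetrix GeneChip Mouse Genome arrays, 1 array for each clone and condition. The labels gave each array its condition and clone, with A1 as replicate 1, A3 as replicate 2 and A4 as replicate 3. The deposited values are log2 signals of the robust multiarray average (RMA), computed by the authors with the affy package of Bioconductor (version not stated in the paper or labels). They were used as deposited, and 64 Affymetrix controls were set aside.

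The change was induced minus control within a clone. With a single pair of arrays a clone no test was run (the study's methods name a t-test, not repeated here), the number of arrays limits the precision, and counts are set beside those of all probe sets. Genes were named through the platform annotation, which gave 1 symbol for 34945 probe sets, several for 932 and none for 9160. Of the probe sets with 1 symbol 34737 matched a RefSeq table (GRCm38.p6) by gene ID, which gave spans and chromosomes. Probe sequences were not used here. All members with a symbol were named, with all arrays for the 15 genes whose smaller change was largest and for genes with several member probe sets. The members, lists and features were chosen with earlier results of these data known. Alternatives were medians subtracted, quantile normalization again, cyclic loess (limma 3.58.1, R 4.3.3), other limits of change, a dim filter of 5 log2, 1 probe set a symbol and leaving out each clone. The selection code was run on simulated data, with shifts planted in induced A1 and control A4 over independent noise. That run checks the code alone and says nothing about the group. Python 3.11.15 and pandas 2.3.3 were used.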

Additional observations from a re-analysis of the deposited data

Results flagged for a closer look

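The median change of the group on induction was 1.41 log2 in A1 and -1.37 log2 in A4, with every member moving up in the first clone and down in the second. The rule that chose the group fixed these directions, each clone has a single pair of arrays, and the difference between the clones was not tested. A clone difference, the handling of single arrays and an exchange of labels within a clone cannot be told apart.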

How the results depend on the processing

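The group held 56 probe sets with array medians subtracted, 58 with quantile normalization again and 60 with cyclic loess, of which 56, 56 and 57 were among the 61. It held 97 with a limit of 0.8 log2, 38 with 1.2 log2 and 4 with 1 probe set for each symbol, where the brightest was kept. With dim probe sets left out it held 51, with only probe sets of 1 symbol 57, and with helicase symbols kept, an alternative chosen after seeing the data, 63. The reverse pattern had 0 probe sets under each alternative run for it. With array medians subtracted the median change of the group was 1.45 in A1, -0.16 in A3 and -1.32 in A4, with quantile normalization again 1.36 in A1, and with cyclic loess -1.34 in A4. The median over the group of the mean change over clones lay between -0.77 and 0.69 when each clone was left out. The other probe sets of these genes opposite by 0.5 log2 went from 9 of 154 (5.84%) to 5 of 117 (4.27%) without dim probe sets. Over all probe sets, the group included, the share went from 0.555% to 0.869%. The mean span was 81.8 kb against a median of 77.6 kb. With clone as a replicate block, an alternative chosen after seeing the data, that median was 0.00016, equal to the value without the block because each clone has both arrays. A paired test over the 3 clones could have been fitted and was not run, since the values chose the group. Leaving out A1 or A4 alone leaves no group to select, and background signal limits probe sets under 5 log2.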
